A study of Mus musculus with 70 samples.

Results

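The receptors that use the common gamma chain were followed at the transcript level in sorted regulatory T cells (Tregs) of 6 mouse tissues. The 8 genes were taken by name, as the receptor chains of the family: Il2ra, Il2rb, Il2rg, Il4ra, Il7r, Il9r, Il15ra and Il21r. The genes were picked with no cut on their measured values, but with earlier results of these data known. They are 8 of 53465 gene identifiers in the count table, and all 8 were among the 13173 protein-coding genes that were expressed widely enough to be tested. Their levels are described over 14 groups of libraries, each group being the cells of a single population in a single tissue.

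The mice were 5 Foxp3YFP-cre males aged 16.6 to 18.6 weeks that carried the reporter allele Foxp3tm4(YFP/icre)Ayr on a B6.129(Cg) background, in which a fusion of yellow fluorescent protein and Cre recombinase is made from the Foxp3 locus. Live CD45.2+ CD4+ YFP+ cells that were negative for lineage markers such as CD8 and CD11b were sorted from blood, spleen, lungs, visceral adipose tissue (VAT), colon and back skin as ST2+ CD44hi and as ST2- CD44hi Tregs, and from spleen and lungs also as ST2- CD44lo CD62L+ Tregs, called resting cells here. ST2, the product of Il1rl1, is the receptor of the alarmin IL-33. Every mouse gave every population, so that 70 libraries were made, and 67 with more than 1000000 counts were kept: 5 per group, except 4 for ST2+ cells of blood and 3 for ST2+ cells of colon. Each library came from at most 220 cells, with fewer in some blood and VAT libraries. CD4 T cells were enriched on magnetic beads for spleen and lungs only. Dissociation differed between the solid tissues, except that lungs and VAT shared a protocol. A difference between tissues therefore cannot be told apart from one between preparations.

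The common gamma chain, encoded by Il2rg, is a subunit of the receptors for IL-2, IL-4, IL-7, IL-9, IL-15 and IL-21, and each receptor adds at least a private chain that gives it its ligand. IL-2 and IL-15 share the beta chain Il2rb, and are told apart by the alpha chains Il2ra (CD25) and Il15ra. Bound receptors signal through the kinases JAK1 and JAK3 to STAT proteins, STAT5 for most of the family, STAT6 for IL-4 and STAT3 for IL-21. Tregs carry high CD25 and depend on IL-2, whereas IL-7 receptor is held low on most Tregs of lymphoid organs.

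Depth ran from 1304560 to 2759926 counts over the kept libraries (median 2039002). Levels are given as CPM, the counts out of 1000000 of a library size scaled by trimmed-mean factors. The transcripts that define the gates followed the labels of the sort: Il1rl1 averaged 275 to 1457 CPM in the ST2+ groups and 0.228 to 118 CPM in the ST2- groups, the highest of these being skin, and Cd44 averaged 59.0 and 61.5 CPM in the CD44lo groups against 139.8 to 1079 CPM in the CD44hi groups. Foxp3, the lineage factor of Tregs, was present in every group, from 139 to 381 CPM on average. The 3 colon ST2+ libraries stood apart in carrying 1242 to 1485 CPM summed over 8 macrophage markers, all 8 with counts, against 31.8 to 223 CPM in colon ST2- libraries. In bulk libraries of this kind, fewer cells that express a gene and less RNA of it per cell cannot be told apart.

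On GRCm38 the 8 genes lie on 5 chromosomes. Il2ra (ENSMUSG00000026770, chr2:11642807-11693193, plus strand) and Il15ra (ENSMUSG00000023206, chr2:11705290-11734317, plus strand) are neighbours with 12096 bases between them. Il4ra (ENSMUSG00000030748, chr7:125552120-125579474, plus strand) and Il21r (ENSMUSG00000030745, chr7:125603429-125633570, plus strand) are likewise neighbours, 23954 bases apart, and neither gap holds a protein-coding gene. Il2rb (ENSMUSG00000068227, chr15:78479256-78495271) and Il7r (ENSMUSG00000003882, chr15:9505788-9530176) share a chromosome but not a neighbourhood, Il9r (ENSMUSG00000020279) lies at chr11:32187541-32200279, and Il2rg (ENSMUSG00000031304) at chrX:101264378-101268255, these last 4 all on the minus strand. Il2rg shares 728 exon bases with the coding gene Gm20489 on the same strand and Il4ra shares 571 with the antisense transcript Gm44876, and reads in those stretches could be split or dropped by the counting. Those partners held 9 and 52 counts over all libraries.

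The starts of Il7r, Il9r and Il2ra are shown because these are the 3 members whose transcripts passed the test most often between groups, the first pair always in the same direction and Il2ra in opposite directions in different tissues. The stretches end at the base before the RefSeq start site on GRCm38.p6 and read 5′ to 3′ on the gene's strand, with the letters of the searched motifs in capitals. They are 250 bases for Il9r (chr11:32200280-32200529, minus strand) and Il2ra (chr2:11642542-11642791, plus strand), and 164 bases for Il7r (chr15:9529877-9530040, minus strand), which was cut short where an exon of another transcript begins. The Il7r stretch lies within the gene limits given above, so it is upstream of the RefSeq start site but not of the whole annotated gene.
Il7r: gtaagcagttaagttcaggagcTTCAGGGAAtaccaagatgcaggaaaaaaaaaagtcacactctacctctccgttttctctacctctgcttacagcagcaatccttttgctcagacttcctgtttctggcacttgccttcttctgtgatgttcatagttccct
Il9r: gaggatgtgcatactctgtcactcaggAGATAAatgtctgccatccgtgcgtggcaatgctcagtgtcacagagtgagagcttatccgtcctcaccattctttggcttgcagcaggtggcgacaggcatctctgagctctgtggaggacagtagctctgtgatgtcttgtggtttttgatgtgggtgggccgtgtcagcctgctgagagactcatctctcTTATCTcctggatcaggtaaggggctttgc
Il2ra: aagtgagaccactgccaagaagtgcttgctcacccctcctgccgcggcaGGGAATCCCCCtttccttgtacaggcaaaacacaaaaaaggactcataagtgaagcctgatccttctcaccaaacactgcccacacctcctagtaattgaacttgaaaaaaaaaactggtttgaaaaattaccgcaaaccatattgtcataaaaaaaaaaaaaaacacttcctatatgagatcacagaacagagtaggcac
The Il7r stretch held the STAT letters TTCNNNGAA from base -142, a pattern found in 8.30% of the 32851 promoter windows of 300 bases in the table. The Il9r stretch held the GATA letters AGATAA from base -223, and on the opposite strand from base -30, a pattern in 11.2% of all windows. The Il2ra stretch held the NF-kB letters, GGG and CC with any 5 bases between them, from base -201 with an overlapping match a base later on the opposite strand, in a pattern that 50.8% of windows carry. In all, 5 motifs were searched on both strands, the others being FOXO (GTAAACA, 3.65% of windows) and AP-1 (TGANTCA, 7.81%). Neither occurred in the stretches shown. Among members not shown, the FOXO letters occurred in the Il21r window from base -38, on the opposite strand. The AP-1 letters occurred in an Il15ra window from base -30, and the NF-kB letters in windows of Il4ra, Il15ra and Il21r. Windows were given for 7 of the 8 members, and the matches describe letters only.

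Per kilobase of exon, averaged over the 67 libraries, the shared chain Il2rg was the most abundant member with 193 CPM per kilobase. Il2rb (141), Il7r (138), Il21r (127) and Il2ra (83.8 CPM per kilobase) followed. Il4ra stood at 57.9, and Il15ra and Il9r at 12.7 and 12.5 CPM per kilobase, more than 10 times below the shared chain. Reads were present for every member in all 67 libraries except Il9r, which had no read in any of the 10 CD44lo libraries and at least 1 CPM in 56 of the 67.

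**Figure D1:**
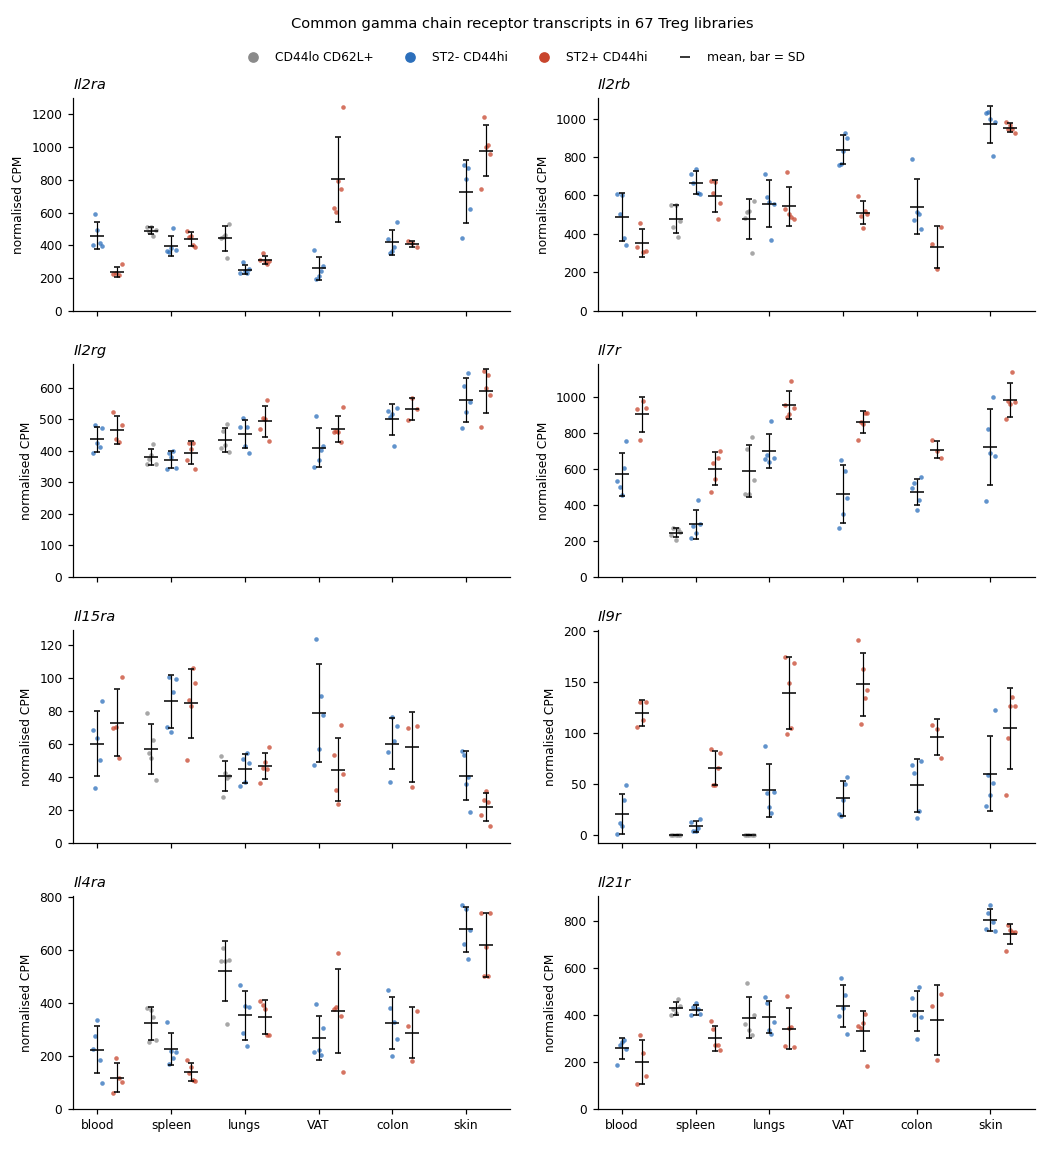
Normalised CPM of the 8 members in every kept library (points), by tissue (horizontal axis) and population (colour), with the mean and SD of each group. Il2rg stayed between 341 and 652 CPM in all libraries, Il9r was at 0 in the 10 CD44lo libraries, and a skin group had the highest mean for Il2ra, Il2rb, Il2rg, Il4ra, Il7r and Il21r and the lowest for Il15ra.

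The first comparison asked how ST2+ Tregs differ from ST2- Tregs of the same tissue. The genes for the IL-7 and IL-9 receptors were higher in ST2+ cells of blood, spleen and VAT, Il2ra was higher in VAT and lower in blood, Il2rb was lower in VAT, and no other chain was called. A member was called where the edgeR quasi-likelihood test gave a fold of at least 1.5 and a p, adjusted after Benjamini and Hochberg, of 0.05 or less. Of the 48 member values over 6 tissues, 9 were called, 7 higher and 2 lower in ST2+ cells, where 1.42% of the values of all tested genes were called, 0.740% higher and 0.683% lower. The calls fell in VAT (4 of 8 members, where 3.12% of all genes were called), blood (3 of 8, 4.04%) and spleen (2 of 8, 0.319%). None was called in lungs (0.782% of genes), colon (0.0683%) or skin (0.213%), and in those 3 tissues 2, 2 and 3 of the 8 members had an unadjusted p under 0.05. The median log2 fold change of the members was 0.06 against 0 for all genes. As a measure for the ranges given below, the libraries of the ST2+ and ST2- groups did not overlap for 5.68% of all genes in colon, 5.14% in blood, 3.65% in lungs, 3.34% in VAT and 2.43% in spleen.

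**Figure D2:**
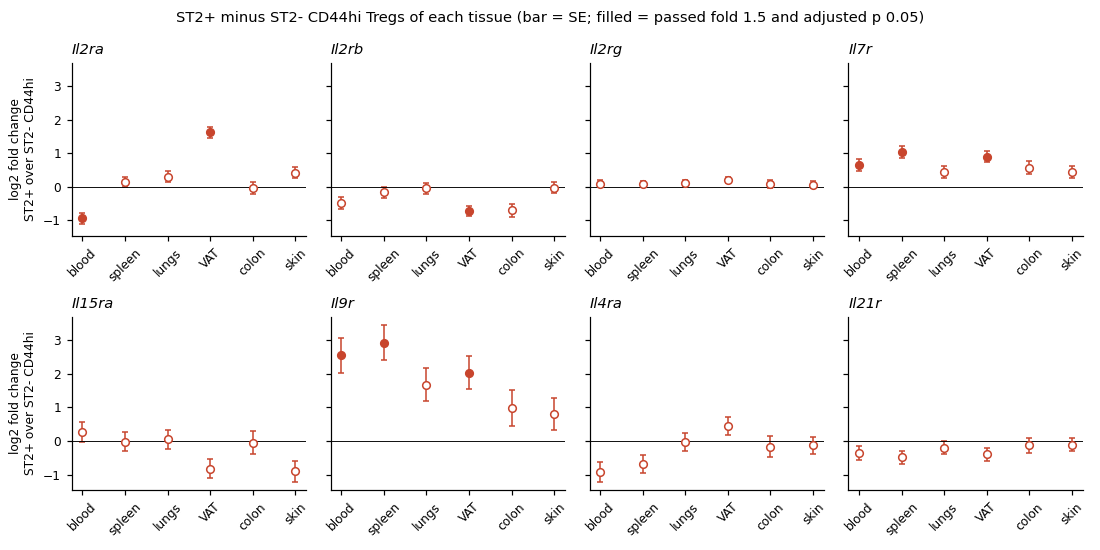
Log2 fold change of ST2+ over ST2- CD44hi Tregs (vertical axis) in each tissue (horizontal axis) for the 8 members, with the SE as a bar and filled points for values that passed the test. Il9r and Il7r lay above 0 in all 6 tissues, and Il2ra was the only member with filled points on both sides of 0.

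The second comparison set each tissue against the spleen within a population. Skin held the most calls, with Il4ra, Il21r, Il2ra and Il7r higher and Il15ra lower in both populations. Of the 80 member values, 33 were called, 23 higher and 10 lower than in the spleen, where 11.5% of all values were called, 6.87% higher and 4.61% lower. For ST2- cells the calls numbered 7 of 8 members in skin, 4 in lungs, 3 in VAT and 2 each in blood and colon, beside 30.9%, 4.03%, 5.78%, 3.38% and 11% of all genes. For ST2+ cells they were 6 of 8 in skin, 3 in VAT and 2 each in lungs, colon and blood, beside 29.1%, 11.2%, 4.87%, 10.4% and 4.11%. In skin the median log2 fold change of the members was 0.90 for ST2- and 0.69 for ST2+ cells, against 0 and -0.01 for all genes. Skin and spleen libraries did not overlap for 27.3% of all genes in ST2- and 25.5% in ST2+ cells. By median summed level, epithelial and fibroblast and adipocyte markers were higher in skin and colon than in spleen. Other lists differed. In skin, B cell markers were lower (medians 11.7 against 84.5 CPM in ST2-, 22.5 against 95.1 CPM in ST2+ libraries). NK and CD8 T cell markers were lower too (19.9 against 43.0 and 33.4 against 43.3 CPM). Macrophage markers were lower in ST2- (4.72 against 12.3 CPM) and higher in ST2+ libraries (32.8 against 4.13 CPM). Mast cell and basophil markers were higher in both. Over 6 epithelial markers the summed level was 82.9 to 1133 CPM in skin ST2- libraries, with Krt8 at 0, against 36.8 to 73.8 in spleen, and 135 to 717 CPM in skin ST2+ libraries, with Krt8 at 0, against 121 to 203. Over 4 fibroblast and adipocyte markers it was 24.9 to 659 CPM in skin ST2- libraries, with Adipoq at 0, against 1.054 to 13.1 in spleen, and 1.28 to 50.8 CPM in skin ST2+ libraries, with all 4 detected, against 0 to 6.06. In colon ST2+ libraries the epithelial sum was 199.9 to 1079 CPM, with Krt14 at 0, and the fibroblast and adipocyte sum 277 to 854 CPM, with Adipoq at 0. In colon ST2- libraries these sums were 42.6 to 812 CPM, with Krt5 at 0, and 6.82 to 596 CPM, with Adipoq at 0. The part of these transcripts in the skin and colon differences was not tested. The comparisons within a population share the spleen libraries, so their values are not independent of each other.

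**Figure D3:**
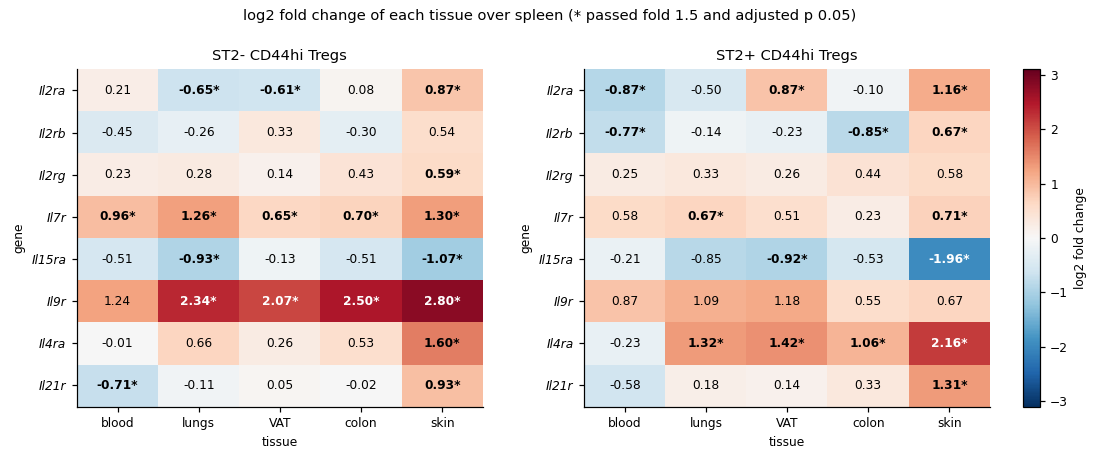
Log2 fold change of each tissue (columns) over the spleen for the 8 members (rows), in ST2- and in ST2+ CD44hi Tregs, with an asterisk where the value passed the test. The skin columns hold 7 and 6 asterisks, the Il7r row is positive throughout, and no Il9r value passed among ST2+ cells by edgeR.

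Over all tissues at once, an F test found a tissue effect for 8 of 8 members in ST2- cells, where 43.5% of all genes had one, and for 7 of 8 in ST2+ cells, where 47.6% did. Il9r was the exception by edgeR, with an adjusted p of 0.272 in ST2+ cells, but it passed there with limma's voom (adjusted p 7.5e-05) and with only the compared groups fitted (0.00588). A tissue-dependent ST2 difference was found for Il2ra alone (adjusted p 3.44e-09), beside 1.43% of all genes. Il15ra lost its tissue effect in ST2- cells when mouse 4 (adjusted p 0.0571) or mouse 5 (0.0555) was left out. With voom in place of edgeR, the interaction of Il2rb also passed (adjusted p 0.0221), and without the 2 libraries of fewer than 100 sorted cells that of Il4ra did (0.0443).

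The third comparison set CD44hi cells against the CD44lo CD62L+ cells of the same tissue. Il9r had no read in resting cells and was higher in all 4 CD44hi groups set against them, Il7r was higher in ST2+ cells of both tissues, Il2ra was lower in ST2- cells of lungs and Il4ra lower in ST2+ cells of spleen. Against ST2- CD44hi cells 3 of 16 values were called, where 5.28% of all values were, and against ST2+ CD44hi cells 5 of 16, where 9.60% were. Between the resting cells of lungs and spleen 1 of 8 members was called, where 3.16% of genes were and 6.19% had ranges that did not overlap. ST2- and ST2+ cells were compared with the same CD44lo libraries.

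Il2rg, the chain that all 6 receptors share, varied least. Its group means ran from 372 CPM in ST2- cells of spleen to 589 CPM in ST2+ cells of skin, a ratio of 1.58. Skin ST2- libraries held 473, 605, 524, 648 and 556 CPM in mice 1 to 5, against 342, 393, 380.4, 398 and 346 in ST2- cells of spleen, with no overlap. This was its only call (log2 fold change 0.59, SE 0.10, adjusted p 1.21e-06), and it lay at the edge of the fold limit: it fell under 1.5-fold without mouse 4, without the colon libraries, with all 70 libraries and with only the compared groups fitted. In ST2+ cells of skin the same difference (0.58, adjusted p 1.87e-06 by edgeR) lay just under that limit, and was called in 5 alternatives. Colon stood above spleen in both populations by edgeR (0.43, adjusted p 0.00105, and 0.44, adjusted p 0.00509), again under 1.5-fold. Between ST2+ and ST2- cells it moved by at most 0.20 on the log2 scale in any tissue.

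Il2ra encodes CD25, the alpha chain that raises the affinity of the receptor for IL-2. In VAT its level was higher in ST2+ cells. ST2+ libraries of VAT held 628, 605, 794, 746 and 1245 CPM in mice 1 to 5. The ST2- libraries of the same mice held 372, 194, 214, 244 and 274 CPM. The lowest ST2+ value thus lay above the highest ST2- value, and the difference was 3.09-fold (log2 fold change 1.63, SE 0.16, adjusted p 6.76e-11, edgeR). Mouse 5 gave the highest ST2+ value of VAT, above every other kept library. The summed level of 8 macrophage markers was 80.4 to 235 CPM in VAT ST2+ and 11.7 to 113 CPM in VAT ST2- libraries, and its part in the VAT differences was not tested.

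Blood showed the opposite. ST2+ libraries of blood held 225, 231, 218 and 283 CPM in mice 2 to 5, and ST2- libraries 403, 590.4, 497, 413 and 394 CPM in mice 1 to 5. The groups did not overlap, and Il2ra was lower in ST2+ cells (log2 fold change -0.94, SE 0.17, adjusted p 0.000273). In the other 4 tissues the fold changes ran from -0.03 in colon to 0.43 in skin on the log2 scale, and none was called. Il2ra was nonetheless higher in ST2+ cells in 5 of 5 mice in both lungs and skin. The share of all genes with the same agreement among mice was not computed. The difference between tissues in the ST2 effect on Il2ra was itself tested, and passed under every alternative run (adjusted p up to 0.000161, without mouse 3).

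Against the spleen, Il2ra was higher in skin in both populations. ST2+ libraries of skin held 742, 1181, 1000.3, 1011 and 955 CPM, all above the 389.9 to 487 CPM of spleen ST2+ libraries (log2 fold change 1.16, SE 0.16, adjusted p 3.55e-08, edgeR), and the increase in ST2- cells was 0.87 (adjusted p 1.36e-05), with mouse 1 at 445 CPM inside the spleen range. Among ST2+ cells, VAT was also above spleen (0.87, adjusted p 3.96e-05) and blood below it (-0.87, adjusted p 0.000650). Among ST2- cells, lungs (-0.65) and VAT (-0.61) were below spleen. Those last calls were lost, for lungs without mouse 3 or 4 (adjusted p 0.000869 to 0.146 over the alternatives), and for VAT without mouse 2, 3 or 4, without the libraries of fewer than 100 cells, with only the compared groups fitted and with cell number as a covariate (0.000495 to 0.151). Resting cells were not low in Il2ra: lung CD44lo libraries held 321 to 529 CPM, and ST2- CD44hi cells of lungs were below them (-0.81, adjusted p 0.000275).

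Il2rb, the beta chain shared by the IL-2 and IL-15 receptors, moved against Il2ra in VAT. ST2- libraries of VAT held 761, 766, 833, 927 and 901 CPM and ST2+ libraries 599, 493, 433, 517 and 504 CPM in mice 1 to 5. All 5 ST2+ values lay below all 5 ST2- values (log2 fold change -0.72, SE 0.16, adjusted p 0.00375, edgeR). The VAT ST2- libraries were made from 93 to 220 cells, and with cell number as a covariate the fold change shrank to -0.57, under the fold limit. In blood Il2rb averaged 352 CPM in ST2+ and 488 CPM in ST2- cells. This difference was called only with cell number as a covariate and without the libraries of fewer than 100 cells. A difference in colon was called only without mouse 4. ST2+ libraries were lower in Il2rb in 24 of the 27 same-mouse pairs over all tissues. These pairs come from 5 mice, and the share of all genes that were lower in as many pairs was not computed.

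Among ST2+ cells, Il2rb was lower than in spleen in blood (-0.77, adjusted p 0.00393, edgeR) and colon (-0.85, adjusted p 0.00205), and higher in skin (0.67, adjusted p 0.000914). The 3 colon ST2+ libraries held 347, 216 and 436 CPM and carried the macrophage, epithelial and fibroblast transcripts described above. Their 5 B cell markers summed to 118 to 403 CPM, all 5 detected, against 63.8 to 149 in spleen ST2+ libraries, and their 4 mast cell and basophil markers to 40.1 to 98.8 CPM, with Cpa3, Fcer1a and Ms4a2 at 0, against 0 to 1.03. The part of these transcripts in the decrease was not tested. Without mouse 3 the colon fold change was -0.60 and was not called. In skin the level was 969 ± 94.4 CPM (SD, n = 5) in ST2- and 953 ± 23.0 CPM (SD, n = 5) in ST2+ cells, a log2 fold change of -0.02 with an SE of 0.16.

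Il15ra, the alpha chain that binds and presents IL-15, was with Il9r the least abundant member, and its 4 calls were all decreases against spleen. Spleen libraries held 70.3, 101, 66.96, 91.6 and 99.5 CPM in ST2- cells and 50.4, 86.8, 82.7, 106 and 97.0 CPM in ST2+ cells of mice 1 to 5. Skin libraries held 56.0, 53.2, 35.7, 39.8 and 18.8 CPM in ST2- cells and 16.6, 25.8, 31.6, 25.03 and 10.2 CPM in ST2+ cells. Skin thus lay below spleen without overlap in both populations (-1.07, adjusted p 0.00284, and -1.96, adjusted p 4.44e-07, by edgeR), and these calls passed in all 16 alternatives. ST2- cells of lungs (-0.93, adjusted p 0.0442) and ST2+ cells of VAT (-0.92, adjusted p 0.0225) were lower by edgeR too, but the lung call was lost on leaving out any of the 5 mice, with no gene filter and with all 70 libraries, and the VAT call without mouse 2, 3 or 5, with all 70 libraries and with only the compared groups fitted. Il15ra fell in skin, where Il2ra, its neighbour on the chromosome, rose.

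Il7r encodes the alpha chain of the IL-7 receptor, CD127. It was higher in the ST2+ library in 27 of 27 same-mouse pairs, as was Il9r, and 21 of all tested genes, 0.159%, were higher in every pair. In spleen, ST2- libraries held 219, 282, 244, 426 and 291 CPM in mice 1 to 5. The ST2+ libraries of the same mice held 473, 631, 542, 663 and 701 CPM, all above the ST2- values, a 2.06-fold difference (log2 fold change 1.04, SE 0.17, adjusted p 0.000229, edgeR). VAT libraries held 270.1, 651, 351, 589 and 439 CPM in ST2- and 762, 861, 851, 909 and 911 CPM in ST2+ cells, again without overlap (log2 fold change 0.90, SE 0.17, adjusted p 0.000443), a call lost with only the compared groups fitted (adjusted p 0.0732).

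In blood Il7r was 533, 498, 453, 606 and 758 CPM in ST2- cells of mice 1 to 5 and 933, 759.8, 978 and 939.9 CPM in ST2+ cells of mice 2 to 5. The difference passed the test (log2 fold change 0.66, SE 0.18, adjusted p 0.0207, edgeR), although it was no longer called without mouse 2 or mouse 3, with all 70 libraries or with only the compared groups fitted (adjusted p 0.00254 to 0.143 over the alternatives). In lungs the ranges did not overlap either, 639.7 to 868 against 887 to 1086 CPM, but the difference of 0.45 was not called (adjusted p 0.295). The differences in colon (0.58) and skin (0.45) were not called, and whether the ST2 difference varied between tissues could not be shown (interaction adjusted p 0.482).

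Every other tissue was above spleen in Il7r among ST2- cells, with log2 fold changes of 1.30 in skin, 1.26 in lungs, 0.96 in blood, 0.70 in colon and 0.65 in VAT, all called by edgeR. The VAT value (adjusted p 0.000794 to 0.234 over the alternatives) was not called without mouse 2 or 5, without the libraries of fewer than 100 cells, with voom, with only the compared groups fitted or with cell number as a covariate, nor the colon value without mouse 2 or 5 (8.78e-05 to 0.0548). Among ST2+ cells the increase in blood was called only in alternatives: DESeq2, voom, median-of-ratios factors and without the libraries of fewer than 100 cells. Increases of ST2+ cells in lungs (0.67) and skin (0.71) were called, that in lungs not without mouse 3. The resting cells showed the same order: CD44lo libraries held 235, 271, 207, 264 and 249 CPM in spleen and 462, 712, 459.7, 775 and 538 CPM in lungs, without overlap (log2 fold change 1.26, SE 0.18, adjusted p 2.77e-07, edgeR). Il7r was thus lowest in the resting and ST2- cells of spleen, at 245 ± 25.5 CPM (SD, n = 5) and 292 ± 80.0 CPM (SD, n = 5). ST2+ CD44hi cells were above the resting cells in spleen (1.30) and lungs (0.70), both called, and the corresponding values of ST2- CD44hi cells were 0.25 and 0.25, not called.

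**Figure D4:**
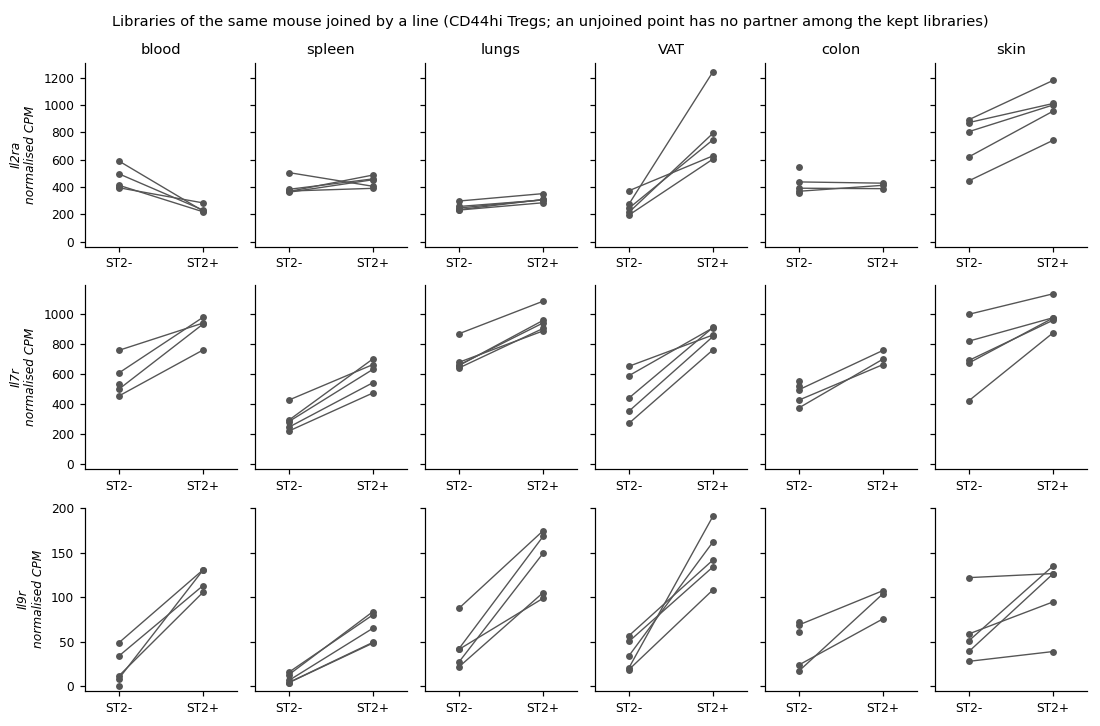
Normalised CPM of Il2ra, Il7r and Il9r (rows, vertical axes) in the ST2- and ST2+ libraries of each tissue (columns), with a line between libraries of the same mouse. All 27 lines rise for Il7r and for Il9r, while those of Il2ra fall in blood and rise in VAT.

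Il9r encodes the private chain of the receptor for IL-9, a cytokine linked with type 2 responses and mast cells. The 10 CD44lo libraries held no read of it, and every CD44hi library held at least 1. Spleen ST2- libraries held 12.7, 3.77, 3.91, 6.22 and 15.5 CPM and spleen ST2+ libraries 83.7, 48.3, 49.2, 65.1 and 80.1 CPM in mice 1 to 5. Set against a floor of 3 counts per CD44lo library, Il9r was at least 6.82-fold higher in ST2- and at least 52.9-fold higher in ST2+ cells of spleen, and at least 32.2-fold and 102.5-fold higher in those of lungs. All 4 comparisons were called by edgeR with adjusted p of 5.08e-06 or less.

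Between ST2+ and ST2- cells, Il9r had the largest fold changes of the family in every tissue but skin. In spleen the 5 ST2+ values above all exceeded the 5 ST2- values (log2 fold change 2.93, SE 0.53, adjusted p 0.00121, edgeR). In blood, ST2- libraries held 0.439, 11.3, 8.28, 33.7 and 48.6 CPM in mice 1 to 5, and ST2+ libraries 105, 130.3, 113 and 131 CPM in mice 2 to 5, without overlap (log2 fold change 2.56, SE 0.52, adjusted p 0.00130), a call lost with only the compared groups fitted (adjusted p 0.153). In VAT the libraries held 20.3, 18.4, 33.9, 50.1 and 56.6 CPM in ST2- and 191, 108, 162, 134 and 142 CPM in ST2+ cells (log2 fold change 2.04, SE 0.49, adjusted p 0.00794), and this call was lost without mouse 2 or 3 (adjusted p 0.000263 to 0.0660 over the alternatives).

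Lung ST2- libraries held 87.4, 41.1, 26.8, 21.4 and 41.8 CPM and lung ST2+ libraries 175, 98.7, 149, 105 and 168 CPM in mice 1 to 5. These ranges did not overlap, but the difference was not called (log2 fold change 1.68, SE 0.49, adjusted p 0.0847). It was called in 4 alternatives: DESeq2, voom, only the compared groups fitted, and without mouse 1, the highest ST2- value. In colon (0.98) and skin (0.80) the differences were not called. The colon ranges of 16.9 to 72.5 and 75.6 to 107 CPM did not overlap, whereas the skin ranges did, with ST2- cells of mouse 5 at 122 CPM and ST2+ cells of mouse 1 at 38.8 CPM. The interaction of ST2 with tissue did not pass for Il9r (adjusted p 0.289).

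Among ST2- cells Il9r was higher than in spleen in skin (2.80), colon (2.50), lungs (2.34) and VAT (2.07), all called by edgeR with adjusted p of 0.00693 or less, while blood, at 1.24, was called only without mouse 1. The VAT call was lost without mouse 2, 3 or 4. Il1rl1 transcripts in these ST2- groups were not level either: they averaged 1.08 CPM in spleen, 4.93 in lungs, 5.87 in blood, 14.01 in VAT, 24.8 in colon and 118 in skin, and their part in the Il9r differences was not tested. Mast cells, which also carry IL-9 receptor, were looked for through 4 marker genes, whose summed level was 22.6 to 89.6 CPM in skin ST2- and 25.4 to 370 CPM in skin ST2+ libraries, with Cpa3, Fcer1a and Ms4a2 at 0 in the former and Fcer1a at 0 in the latter, and its part was likewise not tested. Among ST2+ cells the fold changes over spleen ran from 0.55 to 1.18 and none was called by edgeR over all groups. With voom those of VAT, lungs, skin and blood were called, and with only the compared groups fitted those of VAT, lungs and blood.

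Il4ra, the chain that binds IL-4 and, with another partner, IL-13, had the widest spread of the members other than Il9r, from 117 CPM in ST2+ cells of blood to 678 CPM in ST2- cells of skin. ST2+ libraries of spleen held 185, 134, 158, 109 and 105 CPM in mice 1 to 5, and those of skin 738, 501, 613, 502 and 742 CPM. The skin values were all above the spleen values, a 4.47-fold difference (log2 fold change 2.16, SE 0.28, adjusted p 4.17e-09, edgeR). ST2+ cells of lungs (1.32), VAT (1.42) and colon (1.06) were also above those of spleen, the colon value not being called without mouse 4 (0.77). ST2- cells of skin rose too (1.60, adjusted p 2.99e-06), while those of lungs, VAT, colon and blood were not called.

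Spleen ST2+ cells were low in Il4ra also beside the resting cells of spleen, which held 379, 251.6, 374, 345 and 262 CPM, all above the ST2+ values (log2 fold change -1.22, SE 0.27, adjusted p 0.00105, edgeR). The share of all genes without overlap between these groups is not given here. Between ST2+ and ST2- cells no value was called. The nearest was blood (log2 fold change -0.93, SE 0.29, adjusted p 0.0508), just outside the limit, and called in 6 of the alternatives. In spleen the difference was -0.70 with overlapping ranges (adjusted p 0.615).

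Il21r, the private chain of the IL-21 receptor and the neighbour of Il4ra, was likewise highest in skin. Its libraries held 764, 831, 867, 795 and 755 CPM in ST2- and 669.8, 783, 762, 752 and 750.3 CPM in ST2+ cells of skin, against 399.7, 431, 448, 422 and 403 CPM and 372, 339, 270.4, 271 and 248 CPM in spleen. Neither skin group overlapped the spleen group of its population (0.93, adjusted p 0.000147, and 1.31, adjusted p 3.40e-07, by edgeR). Blood ST2- cells were lower than spleen (log2 fold change -0.71, SE 0.20, adjusted p 0.0235), a call lost without mouse 1, 4 or 5 (adjusted p 0.00338 to 0.141 over the alternatives). In spleen every ST2+ library lay below every ST2- library, but the difference of -0.49 was not called (adjusted p 0.675). Il21r was lower in the ST2+ library in 23 of 27 same-mouse pairs, which come from 5 mice. The share of all genes that were lower in as many pairs was not computed.

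Ordered by mean level, Il2ra, Il2rg and Il7r were highest in ST2+ cells of skin, Il2rb, Il4ra and Il21r in ST2- cells of skin, Il9r in ST2+ cells of VAT and Il15ra in ST2- cells of spleen. The lowest groups were ST2+ cells of blood for Il2ra, Il4ra and Il21r, ST2+ cells of colon for Il2rb, ST2- cells of spleen for Il2rg, resting cells of spleen for Il7r, both resting groups for Il9r and ST2+ cells of skin for Il15ra. Neighbouring groups in these orders mostly overlapped. Of 104 neighbouring pairs, 5 did not overlap. Among them were VAT ST2- and skin ST2+ for Il21r, spleen ST2- and VAT ST2- for Il2rb, and colon ST2+ and VAT ST2+ for Il7r. Orders were made for the members only, so no share of all genes can be set beside these 5. None of the 104 passed an exact two-sided permutation test after adjustment (smallest adjusted p 0.206), and 7 had an unadjusted p under 0.05. However, 5 libraries against 5 can reach no p below 0.00794. For any pair to pass after adjustment, many pairs would have to lie at that floor. The test could therefore not decide which neighbouring groups differ.

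The balance between chains differed by group when levels were set per kilobase of exon. The ratio of Il2rb to Il2ra was 4.38 (geometric mean over libraries) in ST2- cells of VAT and 0.871 in ST2+ cells of VAT, the highest and the lowest of the 14 groups. The ratio of Il7r to Il2ra ran from 0.611 in resting cells of spleen to 4.61 in ST2+ cells of blood. The ratio of Il2ra to the shared chain Il2rg was lowest in ST2+ cells of blood, 0.214, and highest in ST2+ cells of VAT, 0.691, and skin, 0.690. Across the 14 group means, the members most alike were Il4ra and Il21r (Pearson r 0.83), Il2rb and Il21r (0.78) and Il7r and Il9r (0.74), and those most opposed were Il4ra and Il15ra (-0.81) and Il2rg and Il15ra (-0.72). The 14 points share mice and tissues, and these coefficients are a description only.

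The genes that act with these receptors were taken as 6 lists, 26 genes in all: ligands, partner chains, kinases, STATs, feedback regulators, and survival and growth genes. Il9 had no read in any library, and the other 25 genes were tested. Over the 21 comparisons, 90 of 525 values were called, where 7.44% of the values of all genes were. Jak1, Tyk2, Stat6, Pim2 and Il13ra1 were called in none of the comparisons, and Jak3, the kinase of the common gamma chain, in 1. The ligand genes were scarce, averaging 0.720 to 4.57 CPM over the libraries for Il2, Il4, Il7, Il15 and Il21.

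Pim1, a survival kinase gene induced through STAT5, was called in 16 of the 21 comparisons, higher each time. It averaged 22.1 ± 3.32 CPM (SD, n = 5) in ST2- cells of spleen, 50.1 ± 9.98 CPM (SD, n = 5) in ST2+ cells of spleen and 153 ± 20.4 CPM (SD, n = 5) in ST2+ cells of skin. ST2+ cells were above ST2- cells in spleen (log2 fold change 1.18, SE 0.19, adjusted p 0.000162), VAT (0.77) and lungs (0.69), all called by edgeR, and both CD44hi populations of every tissue were above the spleen. Cish, a STAT5-induced feedback gene, was called 9 times, 6 higher and 3 lower, with 108 CPM in ST2- cells of blood and 564 CPM in ST2+ cells of skin, and ST2+ cells were above ST2- cells in lungs (0.91) and VAT (0.75).

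Bcl2, the anti-apoptotic gene that IL-7 and IL-2 sustain in T cells, was called 12 times and was lower each time. It was at 748 ± 58.7 CPM (SD, n = 5) in resting cells of spleen, 387 ± 63.8 CPM (SD, n = 5) in ST2- CD44hi cells of spleen and 11.9 ± 5.97 CPM (SD, n = 5) in ST2- cells of skin. In blood it fell from 703 CPM in ST2- to 147 CPM in ST2+ cells (log2 fold change -2.26, SE 0.31, adjusted p 9.26e-07, edgeR).

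Among the other regulators, Socs2 was called 7 times, always higher, with 179 ± 49.9 CPM (SD, n = 5) in ST2+ cells of VAT. Socs1 was called 7 times, always lower, and was least abundant in the lungs, at 42.1 CPM in ST2- cells against 127 CPM in those of spleen. Stat5a and Stat5b, the STATs of IL-2, IL-7, IL-9 and IL-15, were called 2 and 3 times, always higher, and Stat3 3 times, 2 higher and 1 lower. The remaining calls were of Il4 (4 higher, 1 lower), Myc (4 lower), Il2, Il7, Il15, Crlf2 and Foxp3 (2 higher each), Il21 (1 in each direction), Jak3 and Mcl1 (1 lower each) and Socs3 (1 higher).

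**Figure D5:**
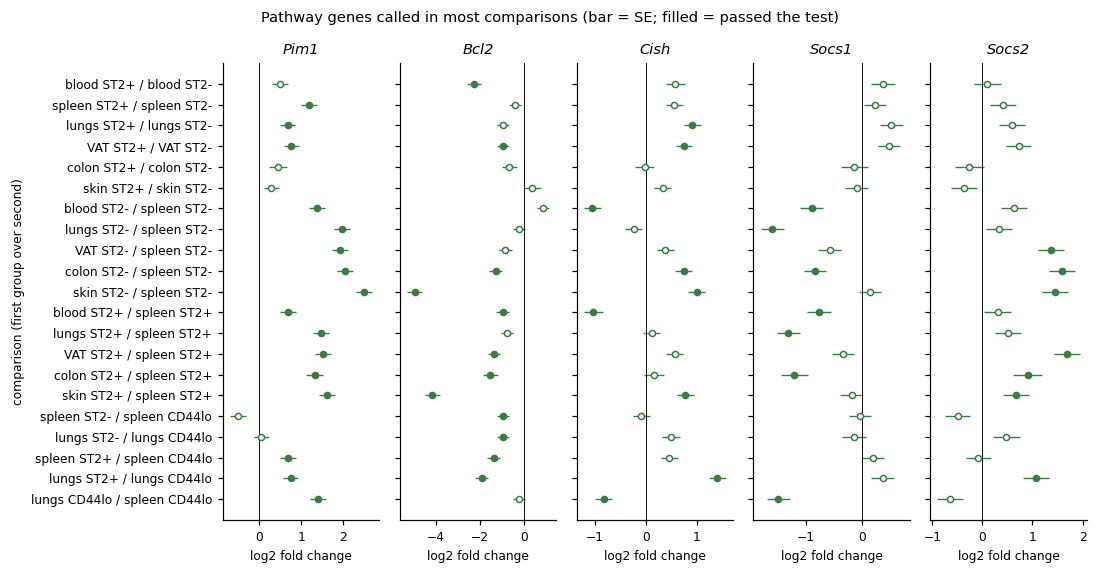
Log2 fold change with SE (horizontal axes) of 5 pathway genes among those called most often, in each of the 21 comparisons (rows), with filled points for values that passed the test. Pim1 has 16 filled points, all right of 0, and Bcl2 has 12, all left of 0.

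Over the 14 group means of log2 CPM, the 3 genes with a pattern most like each member were sought among 9337 genes of at least 10 CPM. Il9r was most like Il18rap (Pearson r 0.964), Ccr4 (0.962) and Gna15 (0.961), Il18rap being a chain of the IL-18 receptor and Ccr4 a chemokine receptor of tissue-homing T cells. Il2rg was most like Nr1d2 (0.957), Il21r like Srsf2 (0.939), Il15ra like Dpm2 (0.928), Il2rb like Pxn (0.925), Il7r like Fcho2 (0.913) and Il2ra like Kdsr (0.859). Of the 24 genes found for the 8 members, 4 were also among the closest 3 by rank correlation, so the choice of genes depended on the measure.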

How the data were processed

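RNA from up to 220 sorted Tregs per library was amplified with SMART-Seq v4, made into NexteraXT libraries and sequenced as 58-base single reads. The authors aligned reads with STAR to GRCm38 with Ensembl 91 gene models and deposited HTSeq counts per gene, unnormalised. The submitters' processing notes also name CASAVA 1.8.2, HTSeq 0.4.1, FastQC, Picard and SAMtools. The strand setting of the counting is not given in the sources used here, so reads of overlapping genes on opposite strands may be mixed. Amplified reads carry no molecular identifiers, so depth sets counting error only.

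From the deposited counts, 3 of 70 libraries, all under 1000000 counts, were not kept, namely those of ST2+ cells of blood (mouse 1) and colon (mice 2 and 5). Of 53465 identifiers, 53274 matched GENCODE M21, which gave names and positions. The 13173 protein-coding genes that reached 1 CPM in 10% of the kept libraries were fitted together with edgeR 4.0.16 in R 4.3.3 (TMM factors, quasi-likelihood test, 1 term per group, Benjamini-Hochberg adjustment over all genes). A call needed a fold of 1.5 and an adjusted p of 0.05, the study's own thresholds. The SE given with an edgeR fold change is the absolute log2 fold change divided by the square root of the F statistic. It is not a direct estimate of the model. The fit was first tested on simulated counts. None of 129 pairs of libraries within groups held identical counts. Level orders used exact permutation tests in scipy 1.17.1 on log2 CPM with a prior count of 2.

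Same-numbered libraries came from the same mouse, by the labels' mouse identifiers, so the numbers pair the samples. Over 27 ST2- and ST2+ pairs and 9207 genes, deviations from group means correlated at 0.0834 on average within a mouse and -0.0200 between mice, and 8 pairs exceeded 0.1. Alternatives were DESeq2 1.42.0, limma 3.58.1 voom with quality weights (the study's test), median-of-ratios factors, other gene and library filters, mouse as a block, the compared groups alone, cell number as a covariate and each mouse left out. Named genes were the 8 members, the pathway lists with values for the 6 called most often, the 3 genes most like each member, and genes of the sort gates. A few items that this rule names are not reported here. A gene such as Jak3 or Gm20489 mentioned beside them was chosen after its values were seen. The members and lists were chosen with earlier results of these data known. The protein sequences of the members were not used here.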

Additional observations from a re-analysis of the deposited data

Results flagged for a closer look

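Single libraries stood apart from the rest of their group in 9 of 102 groups of 4 or 5 libraries, judged by the gap to the nearest library relative to the range of the group, where chance flags about 1 in 20, or 5.1. The high ones were Il2ra in ST2- cells of spleen in mouse 4 (505 CPM), Il2rb in ST2+ cells of blood in mouse 3 (458 CPM), of lungs in mouse 2 (721 CPM) and in ST2- cells of colon in mouse 1 (788 CPM), and Il7r in ST2- cells of lungs in mouse 4 (868 CPM). That blood library was made from 55 cells, the fewest of any kept library. The low ones were Il2rb in ST2- cells of skin in mouse 4 (805 CPM), Il2rg in ST2- cells of colon in mouse 4 (415 CPM), Il4ra in resting cells of lungs in mouse 4 (321 CPM) and Il21r in ST2+ cells of VAT in mouse 5 (182 CPM).

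The ST2 difference of Il2ra depended on the tissue by the test of the difference itself, an edgeR interaction over 6 tissues (adjusted p 3.44e-09), with ST2+ cells lower in blood and higher in VAT.

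The 3 libraries left out for low counts also held reads of the members, given here as plain CPM. Il2rg stood at 733 CPM in ST2+ cells of blood of mouse 1 (358 of 488666 counts), above the highest ST2- library of blood at 483 CPM. In ST2+ cells of colon of mouse 5, with 62333 counts, Il2rg stood at 1027 CPM (64 counts; highest ST2- library 537 CPM) and Il15ra at 96.3 CPM (6 counts; highest ST2- library 76.5 CPM). In the blood library Il9r had 3 counts, or 6.14 CPM, below the 105 to 131 CPM of the kept ST2+ libraries of blood.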

How the results depend on the processing

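No called member value changed direction under the alternatives: of 51 called values, 34 stayed called throughout, 17 lost the call in at least 1 alternative (50 of 812 alternative values), and 21 values not called in the report were called in an alternative. The number of members called in ST2- CD44hi against CD44lo cells rose from 3 to 5 with voom. That between resting cells of lungs and spleen rose from 1 to 2 with voom and with only the compared groups fitted, Il4ra being added, and that of members with an ST2 difference varying by tissue rose from 1 to 2 with voom and without libraries of fewer than 100 sorted cells. Leaving out each mouse in turn gave 7 to 11 calls between ST2+ and ST2- cells (9 in the report), 26 to 33 against spleen, 3, 5 and 1 in the comparisons with or between resting cells, a tissue effect in 7 to 8 and in 7 members, an interaction in 1, and 68 to 81 pathway calls. With mouse as a block, the paired fit gave the same member calls (9, 33, 3, 5 and 1, with 8, 7 and 1 in the overall tests) and 97 pathway calls, of which 88 were shared with the report's 90. Without the colon libraries 9 and 28 calls were left in the first and second comparisons, the tissue itself being gone from the second. With only the compared groups fitted, the ST2 calls of Il7r and Il9r in blood and of Il7r in VAT were lost. The order of group levels was the same with a prior count of 5. Again 0 neighbouring pairs passed the adjusted permutation test, which could not decide which of them differ. The libraries of fewer than 100 cells, the colon libraries and the pathway alternatives were chosen after seeing the data. DESeq2 was not run for the overall tests, nor the interaction on compared groups alone. Depth limits Il9r and Il15ra most, with median counts of 94 and 117 per library.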
